A study of Drosophila melanogaster with 4 samples.

Results

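The cuticle and chitin genes of Drosophila were followed through a cold shock in adult males. They were taken by name: every gene on the 12k cDNA array whose symbol places it among the Cpr, Lcp, Ccp, Edg, Pcp, Acp65Aa and resilin cuticle proteins, the Tweedle (Twdl) proteins, the obstructor (obst), Peritrophin and Gasp chitin-binding proteins, the chitin deacetylases (Cda, serp, verm), the numbered chitinases (Cht), the Idgf genes or the chitin synthase kkv. The array carried 72 such genes on 154 spots, out of 6793 named genes. The current RefSeq table lists 157 symbols that fit the same rule. Of these, 36 of 98 CPR-type cuticle genes, 15 of 25 Tweedle genes, 9 of 10 chitinases, 6 of 12 chitin-binding genes, 4 of 6 Idgf genes and 2 of 5 deacetylases were measured, and kkv was not analysed here.

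The flies were whole males of the strain dp cn bw cl, aged 6 to 7 days after eclosion. In standard Drosophila nomenclature this stock carries the recessive markers dumpy, cinnabar, brown and clot, so treated and control flies shared them. The dumpy gene itself encodes a very large extracellular protein that anchors epidermis to cuticle. Cold-shocked flies spent 2 h at 0 ± 0.5 °C and recovered for 30 min at 25 °C, while co-reared controls stayed in the treatment vessel at 25 °C. Each of 3 arrays compared an independent biological pair of RNA samples, with cold-shocked RNA in Cy5 and untreated RNA in Cy3. A separate pilot array on the 7k design had the dyes reversed.

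Insect cuticle is a layered matrix of chitin fibres and proteins that epidermal cells secrete on their outer face. The CPR proteins bind chitin through the conserved Rebers and Riddiford region, and different members are used in larval, pupal and adult cuticle. Chitin is made at the cell membrane by a synthase, modified by deacetylases, held by obstructor-type binding proteins and broken down at moults by chitinases. In an adult much of the cuticle has already been laid down, and the same classes of protein also serve the tracheal lining, the foregut and the peritrophic matrix of the midgut.

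The values were the authors' log ratios of the channels, taken as log2 because their base is not given in the sources used here. Positive values probably mean more RNA in cold-shocked flies, since every usual convention points that way on these arrays, but the direction is not stated. Because Cy5 always carried the cold-shocked RNA, dye and treatment cannot be told apart. A ratio holds no expression level, so the tissues expressing these genes could not be checked from their markers. In RNA from whole flies, fewer cells of a type and less RNA per cell also cannot be told apart.

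No cuticle or chitin gene passed the test for a difference between cold-shocked and untreated males. Of the 72 members, 39 had a mean ratio below 0 and 33 above, and the 54.2% below stood beside 57.0% of all named genes. The means ran from −1.35 for Ccp84Ab to 0.73 for Cpr57A, and 67 of the 72 lay within 0.5 of 0. Of the 72, 3 (4.17%) had means past a fold of 1.5, Ccp84Ab, TwdlW and Cpr57A, and Cda4 lay just under it. Of all named genes, 5.005% had means lower than that of Cda4, so such means on the low side were not particular to the members. The share of named genes past that fold on the high side was not counted. The smallest limma adjusted p of any member was 0.853, where 0.00% of all 19325 features passed at 0.05.

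At an unadjusted p of 0.05 there were 2 members, Ccp84Ab and TwdlW, both on the low side. That is 2.78% of the members, while 3.49% of the named genes and 4.78% of all features were under the same p, with 2.58% of the named genes on the low side. Without array 3 the count was 0, where 3.09% of all features remained under that p. With the spots of each gene averaged, 21 members had one sign on all 3 arrays, 8 above 0 and 13 below. This share of 29.2% stood beside 29.4% of all named genes, of which 12.5% were above 0 on all arrays and 16.9% below. No member lay beyond 1.5-fold with the same sign on every array (0 of 72), which 0.221% of the named genes did.

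**Figure D1:**
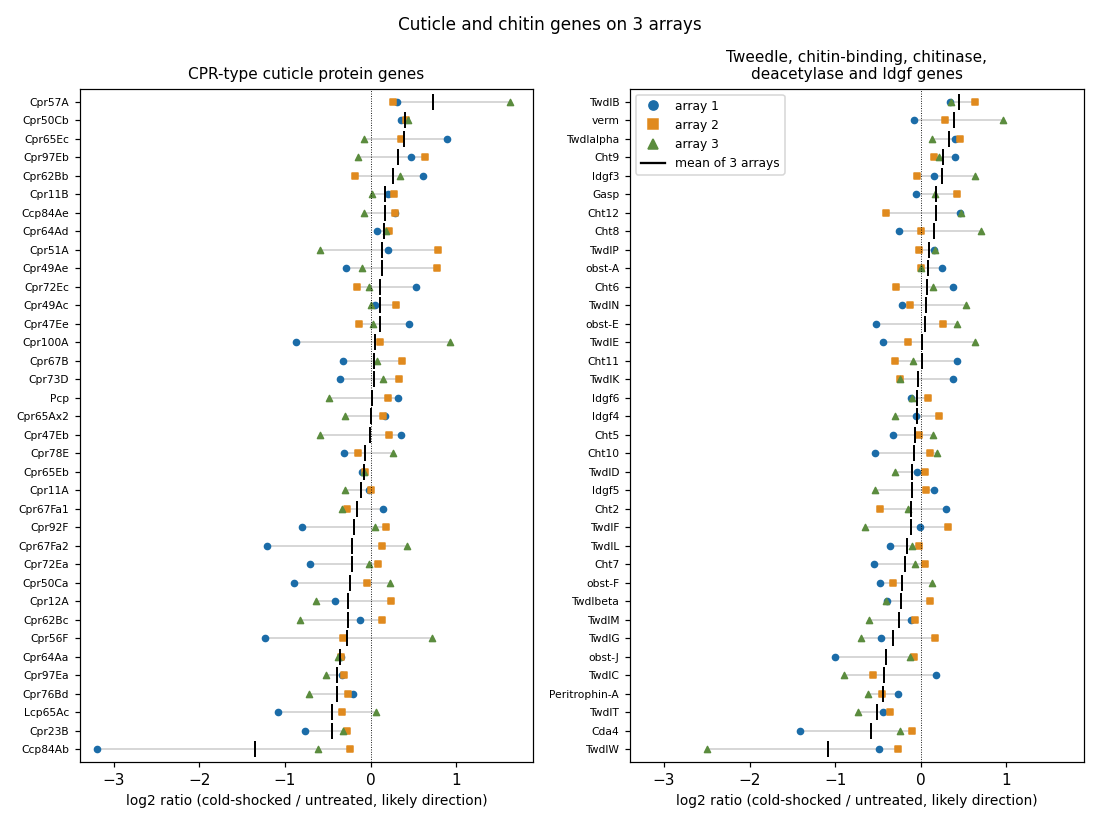
Log2 ratio (x axis) of each of the 72 members (y axis) on arrays 1, 2 and 3, with the mean of the 3 arrays as a black bar; the left panel holds the 36 CPR-type genes and the right panel the other 36. Most means lie within 0.5 of 0, and the far points are single arrays, Ccp84Ab at −3.20 on array 1, TwdlW at −2.49 on array 3 and Cpr57A at 1.62 on array 3.

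The centre and spread of the members' ratios lay close to those of all named genes. Their median ratio was −0.11, 0.03 and −0.07 on arrays 1 to 3, and the medians of all named genes were −0.12, 0.02 and 0.02. The median of the members' means, −0.05, equalled that of the named genes to 2 decimals. The quartiles of the means were −0.23 and 0.12 for members and −0.24 and 0.13 for named genes. The SD of a gene over the 3 arrays had a median of 0.357 for members and 0.338 for named genes. Across the 72 members, arrays 1 and 2 correlated with a Pearson's r of 0.217, arrays 2 and 3 with one of 0.177 and arrays 1 and 3 with one of 0.0720. Across all named genes the same r was 0.0878, 0.0782 and 0.0983, and whether members and named genes differ in it was not tested. These genes share arrays and dye orientation and are not independent replicates.

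The 95% interval of a member's mean, from limma's moderated error, reached a median of 0.579 in log2 to each side. For 59 of the 72 members the interval lay within a fold of 2 in both directions. A change of the size seen for most members was therefore not detectable with 3 arrays, whereas for these 59 the unadjusted interval did not reach a fold of 2.

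The CPR-type cuticle proteins were the largest group, with 18 of 36 means above 0 and 18 below. Of these genes, 5 were above 0 on all 3 arrays and 6 below, and 0 passed. Their median ratio was −0.11, 0.14 and −0.05 on arrays 1 to 3. The group held both the lowest and the highest member, Ccp84Ab and Cpr57A.

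Ccp84Ab, from a cluster of cuticle protein genes on chromosome arm 3R, stood at −3.20, −0.24 and −0.62 on arrays 1 to 3. All 3 arrays were below 0, but array 1 was far from the others. Its mean was −1.35 ± 1.61 (SD, n = 3), or 2.55-fold lower on average, with a 95% interval from −2.64 to −0.07 and a limma adjusted p of 0.853. The 2 spots of the gene disagreed on array 1, where they read −6.09 and −0.31. On array 2 they read 0.26 and −0.74, and on array 3 −0.42 and −0.82. Without array 1 the mean was −0.43. Ccp84Ae, a neighbour in the same cluster, had a mean of 0.17 ± 0.21 (SD, n = 3). Close paralogues within such clusters can share hybridisation on cDNA spots, so the ratios of single cluster members are uncertain.

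Cpr57A stood at 0.30 and 0.26 on arrays 1 and 2 and at 1.62 on array 3. Every array was above 0, and array 3 alone took the gene past a fold of 1.5. Its mean was 0.73 ± 0.77 (SD, n = 3), a 1.66-fold ratio, with a 95% interval that began at −0.04 and a limma adjusted p of 0.853. Without array 3 the mean was 0.28. Both spots were high on array 3, at 2.14 and 1.10.

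Other CPR genes were closer between arrays and smaller in size. Cpr50Cb read 0.36, 0.41 and 0.43 on arrays 1 to 3, with a mean of 0.40 ± 0.04 (SD, n = 3) and a limma adjusted p of 0.853. Cpr64Aa read −0.35, −0.34 and −0.38, with a mean of −0.36 ± 0.02 (SD, n = 3) and the same adjusted p. These values average spots that disagreed, at −0.74 and 0.04 on array 1 and 0.03 and −0.71 on array 2. With local medians subtracted the SD of Cpr64Aa was 0.30. The neighbours of Cpr50Cb and Cpr64Aa did not go with them: Cpr50Ca had a mean of −0.24 ± 0.59 and Cpr64Ad one of 0.16 ± 0.07 (SD, n = 3). The spots of Cpr64Ad also disagreed, at 0.79 and −0.36 on array 2, and with local medians subtracted its SD was 0.22. The small SDs of Cpr50Cb and Cpr64Aa come from only 3 arrays. For both genes limma's moderated error, which borrows the spread of all features, was wider.

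The remaining CPR genes with one sign on all arrays and a low mean were Cpr23B, Cpr76Bd and Cpr97Ea. Cpr23B stood at −0.76, −0.28 and −0.33, Cpr76Bd at −0.21, −0.26 and −0.72 and Cpr97Ea at −0.33, −0.31 and −0.52. Without array 1 the mean of Cpr23B moved from −0.45 to −0.30, and without array 3 that of Cpr76Bd from −0.40 to −0.23. Cpr65Eb was also below 0 on all 3 arrays, by 0.10 at most. On the high side Cpr64Ad, Cpr11B and Cpr49Ac had means of 0.16, 0.17 and 0.11. The one sign of these last genes and of Cpr65Eb is that of averaged spots. Spots of Cpr65Eb and of Cpr11B differed in sign on every array. Those of Cpr49Ac did so on arrays 1 and 3 and those of Cpr64Ad on array 2. None of the genes in this paragraph passed, and none reached a mean fold of 1.5.

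Several CPR genes turned between arrays. Cpr56F ran from −1.23 on array 1 to 0.71 on array 3, Cpr100A from −0.87 to 0.92, and Cpr67Fa2 from −1.21 to 0.43, each with array 2 between. Lcp65Ac, a larval cuticle protein gene, read −1.08, −0.33 and 0.06. For Cpr51A array 2 was the highest at 0.79 and array 3 the lowest at −0.59. Such members had means near 0 or a wide spread, and their groups of 3 values crossed 0. Pcp, a pupal cuticle protein gene nested in an intron of another gene, averaged 0.01 ± 0.43 (SD, n = 3).

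Tweedle proteins are cuticle proteins named for mutants with altered body shape. Of 15 measured members, 10 had means below 0 and 5 above, with 4 below and 2 above 0 on all 3 arrays. Among all named genes, 57.0% had means below 0, and 16.9% were below and 12.5% above 0 on all 3 arrays. The Tweedle median of means was −0.12, against −0.05 for all named genes, and on array 3 the Tweedle median ratio was −0.30. No Tweedle gene passed.

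TwdlW was the lowest of them, at −0.49 and −0.26 on arrays 1 and 2 and −2.49 on array 3. Both of its spots were low on array 3, at −2.08 and −2.90. The mean was −1.08 ± 1.23 (SD, n = 3), or 2.12-fold lower on average, with an interval from −2.12 to −0.05 and a limma adjusted p of 0.853. Without array 3 it was −0.38. TwdlT was steadier, at −0.44, −0.36 and −0.73, with a mean of −0.51 ± 0.19 (SD, n = 3), which became −0.29 when the local median around each spot was subtracted. TwdlC read 0.17 on array 1 and −0.56 and −0.90 on the other arrays.

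TwdlB read 0.34, 0.63 and 0.35, above 0 on every array, with a mean of 0.44 ± 0.17 (SD, n = 3) and a limma adjusted p of 0.853. Its spots disagreed on array 3, at −0.18 and 0.87. Twdlalpha followed with 0.40, 0.45 and 0.13 and a mean of 0.33 ± 0.17 (SD, n = 3). Neither reached a fold of 1.5 on average.

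Tweedle genes also lie side by side, and 7 measured members form a run on chromosome arm 3R in the order TwdlM, TwdlP, TwdlB, TwdlL, TwdlK, TwdlN and TwdlD. Their means were −0.26, 0.10, 0.44, −0.17, −0.04, 0.06 and −0.10. TwdlB stood highest in the run, next to TwdlP on one side and TwdlL on the other. As averages of spots, the array values of TwdlB did not overlap with those of either neighbour. A spot of TwdlB was below 0 on array 3, at −0.18. How often other neighbouring genes do not overlap was not counted. The run as a whole did not share a sign.

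**Figure D2:**
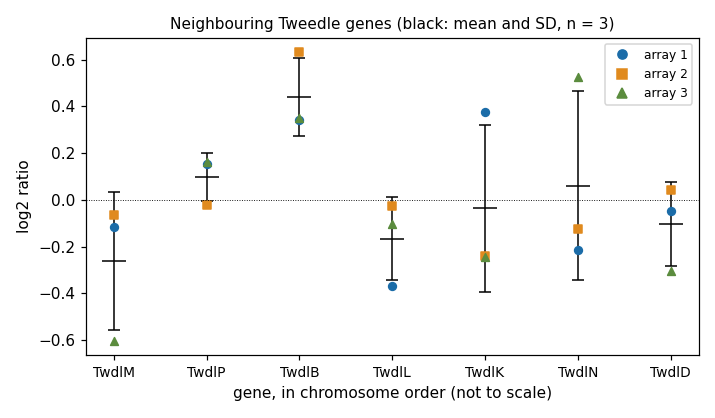
Log2 ratio (y axis) of 7 neighbouring Tweedle genes in chromosome order (x axis) on arrays 1 to 3, with black marks for the mean and bars for the SD (n = 3). TwdlB, at a mean of 0.44, has all 3 arrays above 0 as averages of its spots, while the other means lie between −0.26 and 0.10.

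Other neighbours were compared in the same way. Counting members no more than 5 steps apart in the order of protein-coding genes, 38 members fell into 16 runs, and 12 of the runs had means of both signs. Within a run the highest and lowest mean differed by a median of 0.465. Neither value was worked out for neighbouring genes outside these families, so the runs cannot be called more or less alike than others. Cpr97Ea and Cpr97Eb, adjacent genes, had means of −0.39 and 0.32, Cpr65Eb and Cpr65Ec of −0.08 and 0.39, and Cpr62Bb and Cpr62Bc of 0.26 and −0.27. The chitinase genes Cht8, Cht12 and Cht9 had means of 0.15, 0.17 and 0.26, all above 0, though only Cht9 was above 0 on every array.

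Among chitin-binding proteins, 3 of 6 means were below 0 and 3 above, and 0 passed. Peritrophin-A, which carries the chitin-binding domain first known from peritrophic matrix proteins, read −0.26, −0.46 and −0.62, with a mean of −0.45 ± 0.18 (SD, n = 3) and a limma adjusted p of 0.853. On array 3 its spots differed in sign, at 0.19 and −1.42. obst-J read −0.999, −0.08 and −0.13, so array 1 held most of its mean of −0.40 ± 0.52 (SD, n = 3), which was −0.11 without that array. obst-A, which organises chitin in the larval cuticle and is the gene next to Peritrophin-A, had a mean of 0.08 ± 0.15 (SD, n = 3). Gasp, a chitin-binding protein of the tracheal lining, had a mean of 0.18 ± 0.24 (SD, n = 3), with array 1 just below 0.

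The 2 measured chitin deacetylase genes lay on opposite sides of 0. Cda4 read −1.41 on array 1 and −0.10 and −0.25 on the others, with a mean of −0.58 ± 0.72 (SD, n = 3), or −0.17 without array 1. The gene verm (vermiform), whose secreted product limits the length of tracheal tubes, read −0.08, 0.28 and 0.96, with a mean of 0.39 ± 0.52 (SD, n = 3), or 0.10 without array 3. The limma adjusted p was 0.853 for Cda4 and 0.862 for verm.

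Chitinases had the narrowest range of means among the groups with more than 4 members, from −0.19 for Cht7 to 0.26 for Cht9. Of 9 members, 5 had means above 0 and 4 below. Cht9 was the only one with one sign, at 0.40, 0.16 and 0.21 and a mean of 0.26 ± 0.13 (SD, n = 3). Cht5 and Cht10, chitinases known from cuticle turnover at moults, had means of −0.07 ± 0.23 and −0.08 ± 0.39 (SD, n = 3). Cht10 was printed 3 times as a pair of spots, and the pairs had means of −0.06, 0.06 and −0.24. On array 3 its spots differed by 2.55, so its value is uncertain. The 2 pairs of Cht12 had means of 0.11 and 0.23.

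Idgf proteins resemble chitinases but are secreted growth factors without chitinase activity, made in fat body and blood cells. Of 4 measured members, 0 had one sign on all arrays. Idgf3 had the highest mean, 0.25 ± 0.35 (SD, n = 3), with array 3 at 0.63 and a mean of 0.05 without it, and Idgf5 the lowest, −0.11 ± 0.38 (SD, n = 3), with array 3 at −0.54. Idgf4 and Idgf6 both averaged −0.05. The 2 printed pairs of Idgf6 had means of −0.27 and 0.18, on either side of 0.

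**Figure D3:**
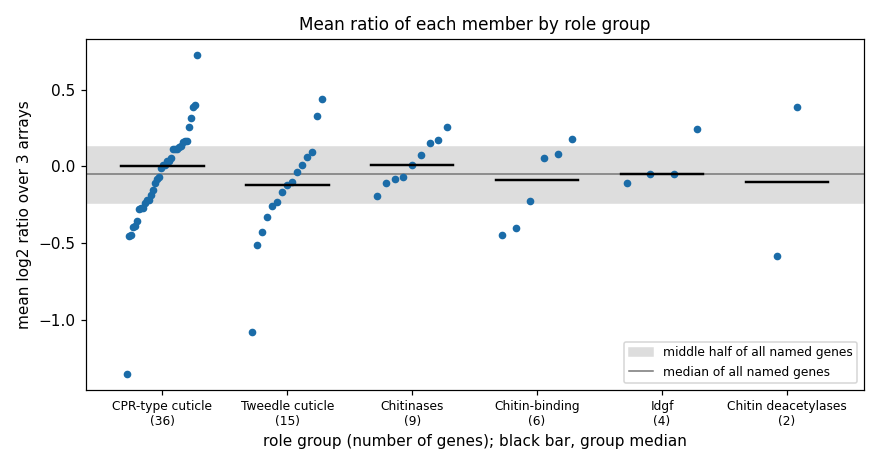
Mean log2 ratio over 3 arrays (y axis) of each member, by role group (x axis), with a black bar at the group median; the grey band spans the quartiles of all 6793 named genes, −0.24 to 0.13, and the grey line is their median of −0.05. Every group has members on both sides of 0, and the points farthest from the band are Ccp84Ab at −1.35, TwdlW at −1.08 and Cpr57A at 0.73.

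How far a ratio can be trusted depends on the agreement between spots of a gene. For the 68 members with 2 spots, the spots differed by a median of 0.323, 0.294 and 0.372 on arrays 1 to 3, against 0.324, 0.339 and 0.391 for named genes with 2 spots. The members' own SD over arrays, a different measure taken after spots were averaged, had a median of 0.357. A difference above 2 on an array occurred for 2 members, Ccp84Ab and Cht10. Cht11 and Idgf4 came next, with largest differences of 1.99 and 1.87. TwdlW, in contrast, had spots that differed by at most 0.82, so its low value on array 3 was read from both spots.

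**Figure D4:**
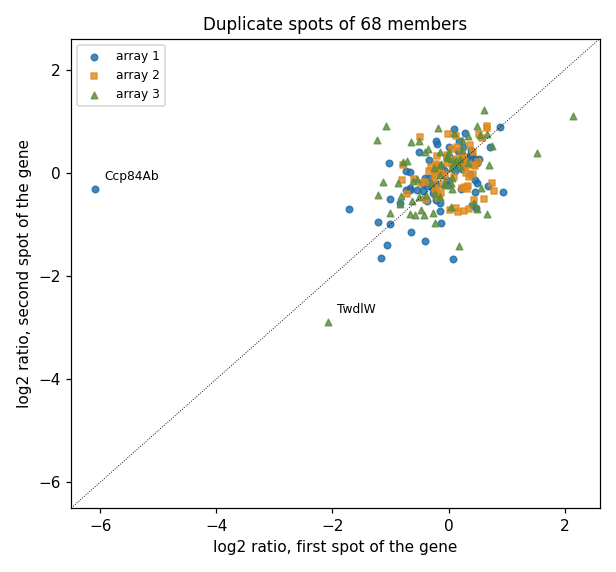
Log2 ratio of the first (x axis) and second (y axis) spot of the 68 members with 2 spots, on arrays 1 to 3; the dotted line marks equal values. Ccp84Ab on array 1 lies far off the line at −6.09 and −0.31, while TwdlW on array 3 is low on both spots, at −2.08 and −2.90.

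Other genes of chitin synthesis and cuticle hardening were read from the same arrays. Of 17 listed genes of chitin synthesis, turnover and sugar supply, 11 were measured, 7 with means above 0 and 4 below, and 0 passed. Gnpnat, which acetylates glucosamine phosphate, read −1.09 on array 1 and close to 0 on the others, for a mean of −0.38 ± 0.62 (SD, n = 3), or −0.03 without array 1. The gene exp (expansion), which is needed with kkv for chitin deposition, had a mean of 0.29 ± 0.33 (SD, n = 3), which was 0.67 with local medians subtracted and 0.17 without array 3. The gene mmy, which makes the activated sugar for chitin, had a mean of 0.08 ± 0.24 (SD, n = 3). The list's median of means was 0.08.

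Of 33 sclerotization and pigment genes, 18 were measured, 6 with means above 0 and 12 below, and 0 passed. Among all named genes, 57.0% had means below 0. The list's median of means was −0.05. The melanin gene y (yellow) read −0.18, −0.36 and −0.79, with a mean of −0.44 ± 0.31 (SD, n = 3), and its relative yellow-e3 had a mean of −0.36 ± 0.34 (SD, n = 3). Without array 3 these means were −0.27 and −0.21. ple and Ddc, which make dopamine for cuticle tanning, had means of 0.20 ± 0.21 and −0.13 ± 0.18 (SD, n = 3).

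All 4 measured of 15 genes for apical matrix proteins, most of them with a zona pellucida domain, had means below 0. Of these, 2 were below on all 3 arrays and 0 passed the test. Among all named genes, 57.0% had means below 0 and 16.9% were below on all 3 arrays. The largest of the matrix genes were neo at −0.49 ± 0.45 and mey at −0.38 ± 0.55 (SD, n = 3), each lowest on array 3, and without it at −0.27 and −0.06. Of 28 other secreted mucin and Vajk genes, 10 were measured, 4 with means above 0 and 6 below. Muc26B read −0.26, −0.64 and −1.25, with a mean of −0.71 ± 0.50 (SD, n = 3), and Vajk4, whose family is secreted into cuticle, had a mean of −0.53 ± 0.72 (SD, n = 3). Both were lowest on array 3, without which they stood at −0.45 and −0.12. Of 26 ecdysone-related and other regulators, 12 were measured, 3 with means above 0 and 9 below, with Hr39 at −0.27 ± 0.15 and usp at −0.27 ± 0.63 (SD, n = 3). The spots of Hr39 and those of mey differed by over 2 on an array, so both values are uncertain. With the median of its spots in place of their average, Hr39 stood at −0.16. Over these 5 lists 0 genes passed limma's test. Muc26B was the only gene under an unadjusted p of 0.05, which 3.49% of all named genes met.

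Markers of other sources of RNA were set beside these values. Of 9 measured female markers, 7 had means below 0 and 5 were below on all 3 arrays, with Yp1 at −2.64 ± 1.44 and dhd at −2.38 ± 0.55 (SD, n = 3). Their median ratio was −0.88, −0.45 and −0.10 on arrays 1 to 3. Larval and pupal markers, 6 of 18 measured, had a median of means of 0.05, 4 above 0 and 2 below, with Lsp2 at 0.34 ± 0.42 and Eig71Ee at 0.29 ± 0.15 (SD, n = 3). With local medians subtracted Eig71Ee stood at 0.10, and without array 2 Lsp2 stood at 0.20. Blood cell markers, 9 of 14 measured, had 8 means below 0, and 2 were below on all 3 arrays. These were ush at −0.72 ± 0.42 and vkg at −0.59 ± 0.72 (SD, n = 3), or −0.47 and −0.17 without array 3. Hml, NimC1 and eater had mixed signs and means of −0.27 ± 0.38, −0.23 ± 0.26 and −0.27 ± 0.39 (SD, n = 3). Col4a1 was the 1 with a mean above 0, at 0.12 ± 0.12 (SD, n = 3). Tracheal markers, 4 of 9 measured, had a median of means of 0.08, 2 above 0 and 2 below, with Mipp1 at 0.39 ± 0.52 and sano at −0.31 ± 0.62 (SD, n = 3), or 0.18 and 0.03 without array 3. Male markers, 7 of 21 measured, had one of −0.03, with 3 means above 0 and 4 below and 0 genes of one sign on all arrays. The largest were dj at 0.32 ± 0.33 and Acp53Ea at 0.17 ± 0.35 (SD, n = 3), and the lowest was betaTub85D at −0.12 ± 0.31 (SD, n = 3). Without array 3 dj stood at 0.17, and without array 1 Acp53Ea stood at 0.06. No marker passed limma's test, with 3 female markers and 1 blood cell marker under an unadjusted p of 0.05, which 3.49% of all named genes met. Among all named genes, 57.0% had means below 0 and 16.9% were below on all 3 arrays. The part of the markers in the members' ratios was not tested.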

How the data were processed

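RNA from whole males was hybridised to 2-colour cDNA arrays, 3 of the 12k design and 1 pilot. The deposited log2 ratio of each spot rests on data that the authors had normalized, per the labels. How images were read, background removed and channels normalized, and the base of the logarithm, is not given in the sources used here. No further centring was applied, and array medians were −0.13, 0.03 and 0.03.

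Of 27648 spots, 15116 had 1 gene symbol in the platform annotation, 102 had several and 12430 had none. Symbols were updated through gene identifiers to the RefSeq table of the Release 6 assembly, which held 14894 of the named spots and all 154 member spots. Spots of a gene were averaged, and spots without a single symbol were kept, which gave 19325 features. A two-sided limma test (version 3.58.1, R 4.3.3, lmFit then eBayes) compared each mean with 0, and p-values were adjusted by Benjamini-Hochberg over all features, with calls at 0.05. Residual degrees of freedom were 2 and prior ones 4.99. With 3 arrays the number of arrays limits the precision.

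The members, lists and tests were chosen with earlier results of these data known. Genes named are the members with one sign on all arrays, up to 10 in each direction by unadjusted p, the 2 members of each role group and the 2 genes of every other list with the largest absolute mean, and the highest and lowest member. Other members and list genes in the text were chosen after their values were seen. Local medians were taken over the 101 spots nearest in array order.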

Additional observations from a re-analysis of the deposited data

How the results depend on the processing

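The number of members past the test was 0 under all 10 alternatives, with the smallest limma adjusted p of a member between 0.725 and 1.00. The 2 members under an unadjusted p of 0.05 became 1 with local medians subtracted, 1 with disagreeing spots left out, 1 with robust eBayes, 0 against a fold of 1.2, 3 with arrays centred and 4 for named genes only, beside 5.72%, 4.95%, 4.82%, 1.73%, 5.31% and 5.70% of the features fitted. It was 3, 3 and 0 without replicates 1, 2 and 3, beside 5.26%, 6.25% and 3.09%. The 21 members with one sign became 23 with local medians subtracted (30.8% of the named genes), of which 14 had the same sign in both settings, and 37 to 39 on leaving out a replicate, when 2 arrays sufficed, which 52.5% to 53.4% of the named genes met. The median of means, −0.05, ranged from −0.11 to −0.0098 without one replicate. With local medians subtracted, the means of 9 of the 72 members changed sign. Among the genes named by rule, leaving out a replicate turned the mean of Idgf5 (−0.24 to 0.11), usp (−0.53 to 0.0850) and sano (−0.57 to 0.0347). The pair is already contrasted inside every ratio, so the test of the mean ratio against 0 used the pairing. Channel intensities were not used here, so signal over background is unknown for every spot.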

Other observations

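The pilot array, a single array of the 7k design with reversed dyes, held 13 genes of the cuticle and chitin families, 11 of them also on the 12k design. Which channel is the numerator is unclear there, so the deposited sign was kept and could be opposite for every gene. Values are differences from the array median of 0.40, and there was no replicate. The median of the 13 was 0.02, and 6 lay below the array median. The quartiles of the 2377 named pilot genes were −0.41 and 0.47. TwdlW and TwdlT stood at −0.82 and −0.54 with 12k means of −1.08 and −0.51, while Cpr49Ac at 0.79 and obst-A at 0.39 had 12k means of 0.11 and 0.08. Cht10, from 8 spots, stood at 0.88 and Cht7 at 0.62, with 12k means of −0.08 and −0.19. Cpr72Ec, Cpr47Ee and verm stood at −0.52, −0.47 and −0.25, with 12k means of 0.12, 0.11 and 0.39. Idgf3 and Cht12 stood at 0.02 and −0.02, with 12k means of 0.25 and 0.17. As deposited, 5 of the 11 shared genes had the sign of their 12k mean, and with the pilot turned 6 had it. Lcp65Ag3 and obst-B, not measured on the 12k design, stood at 0.66 and 0.29.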
